A study of Mus musculus with 6 samples.

Results

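The adrenomedullin system of the mouse glomerulus was followed through its 6 genes, taken by name from a list: Adm and Calca, which encode ligands, Calcrl, which encodes the shared receptor, and Ramp1, Ramp2 and Ramp3, which encode its accessory proteins. All 6 had at least 1 transcript in a kept cell, among 27923 genes that did. The glomerulus is the capillary tuft in which the kidney filters blood. All samples came from 8 week old male CD1 IGS outbred mice. 4 Drop-seq libraries (replicates 1 to 4) held dissociated glomerular cells fixed in 80% methanol/PBS, 1 bulk library held whole isolated glomeruli taken live without fixation (500 ng of RNA), and 1 bulk library held dissociated cells that were fixed in 80% methanol/PBS and sorted (95 ng of RNA). No sample carried a genetic change or a treatment according to the labels. Nothing in them ties a library to an animal, so p-values measure only the spread between these libraries.

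Adrenomedullin is a secreted peptide that widens vessels and tightens the endothelial barrier. Its receptor is a G protein-coupled receptor, the calcitonin receptor-like receptor made from Calcrl, which reaches the cell surface only in a complex with a receptor activity-modifying protein (RAMP). With RAMP2 or RAMP3 the complex binds adrenomedullin, and with RAMP1 it binds calcitonin gene-related peptide, one of the products of Calca. The complexes signal mainly through cyclic AMP. Calca also encodes calcitonin by alternative splicing, and counts per gene do not separate the 2 products.

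In Drop-seq each cell is caught in a droplet with a barcoded bead, and a molecular identifier (UMI) marks every captured transcript. The 4 libraries held 3528543 to 6411775 UMIs, and 13993 of 15465 barcodes were kept, with a median of 965 UMIs. Cell types were rebuilt by clustering without the 6 genes and named from marker genes: 10481 cells were podocyte-like, 1855 endothelial-like, 928 tubular-like, 355 parietal epithelial-like, 325 mural-like (a name used for mesangial, smooth muscle and renin markers together) and 49 immune-like. Each marker list was highest in the type named from it, but the parietal epithelial-like cells also carried all 9 podocyte markers, at a summed 13325 ± 2157 UMIs of 1000000 in the type (CPM; SD, n = 4) against 21257 ± 1588 in podocyte-like cells, besides parietal markers at 592 ± 212 CPM against 86.4 ± 5.71. The proximal tubule marker Slc34a1 was at 0 in tubular-like cells. Podocyte markers also reached 4372 CPM in the endothelial-like type, 3204 CPM in the mural-like type and 1719 CPM in the tubular-like type. The mural-like type was led by Ren1, Acta2, Rgs5 and Myh11. Its smooth muscle and renin markers stood at 21922.5 CPM and its mesangial markers at 2100 CPM. Among the kept cells, 3 barcodes stood in more than 1 library.

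Adm was highest in podocyte-like cells, the filtration epithelium that wraps the capillaries. Replicates 1 to 4 gave 954, 880, 677 and 1005 CPM (mean 879 ± 144, SD, n = 4). Podocyte-like cells held 94.2% of all Adm UMIs in kept cells. They made up 74.3% of the kept cells (mean of the 4 libraries). Parietal epithelial-like cells followed with 651, 652, 547 and 725 CPM (mean 644 ± 73.4). In each of the 4 libraries the parietal value lay below the podocyte value of the same library, although the ranges of the 2 types overlapped.

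Endothelial-like cells had 124 ± 37.3, tubular-like cells 108 ± 17.6 and mural-like cells 88.4 ± 46.3 CPM of Adm (SD, n = 4). No library of these 3 types reached the lowest podocyte or parietal library. The log2 difference from podocyte-like cells was -2.68 in endothelial-like cells (SE 0.13, adjusted p = 1.26e-32, edgeR quasi-likelihood test) and -0.51 in parietal epithelial-like cells (SE 0.12, adjusted p = 0.003). In the 2 comparisons 58.3% and 6.91% of all 7481 genes tested were called. The parietal difference was -0.50 with adjusted p = 0.0952 without the replicate block, and -0.50 with adjusted p = 0.110 without cells that held markers of 2 types. Endothelial-like cells also lay below parietal epithelial-like cells (log2 difference -2.17, adjusted p = 1.43e-19; 33.5% of genes called). Tubular-like cells had less Adm than parietal epithelial-like cells, which stood above them by 2.14 on the log2 scale (adjusted p = 4.57e-20; 37.6%; 0.42, adjusted p = 0.167, with at most 10% mitochondrial UMIs), and than podocyte-like cells, which stood above them by 2.64 (adjusted p = 4.69e-33; 58.1%). The 3 low types did not pass against each other (adjusted p = 0.884 for endothelial-like against tubular-like, 0.198 for endothelial-like against mural-like and 0.123 for mural-like against tubular-like cells). The last passed without replicate 1 (-1.0, adjusted p = 0.0301) and with at most 10% mitochondrial UMIs (-1.89, adjusted p = 6.30e-06). Endothelial-like against mural-like cells passed with at least 500 genes per cell (1.02, adjusted p = 0.0149), and endothelial-like against tubular-like cells passed in opposite directions with at least 500 genes per cell (0.93) and with at most 10% mitochondrial UMIs (-1.22). At that mitochondrial limit the tubular-like type was 177 cells led by S100g, Klk1 and Aqp2, in place of 928 cells. All comparisons with tubular-like cells at this limit therefore rest on a different set of cells.

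**Figure D1:**
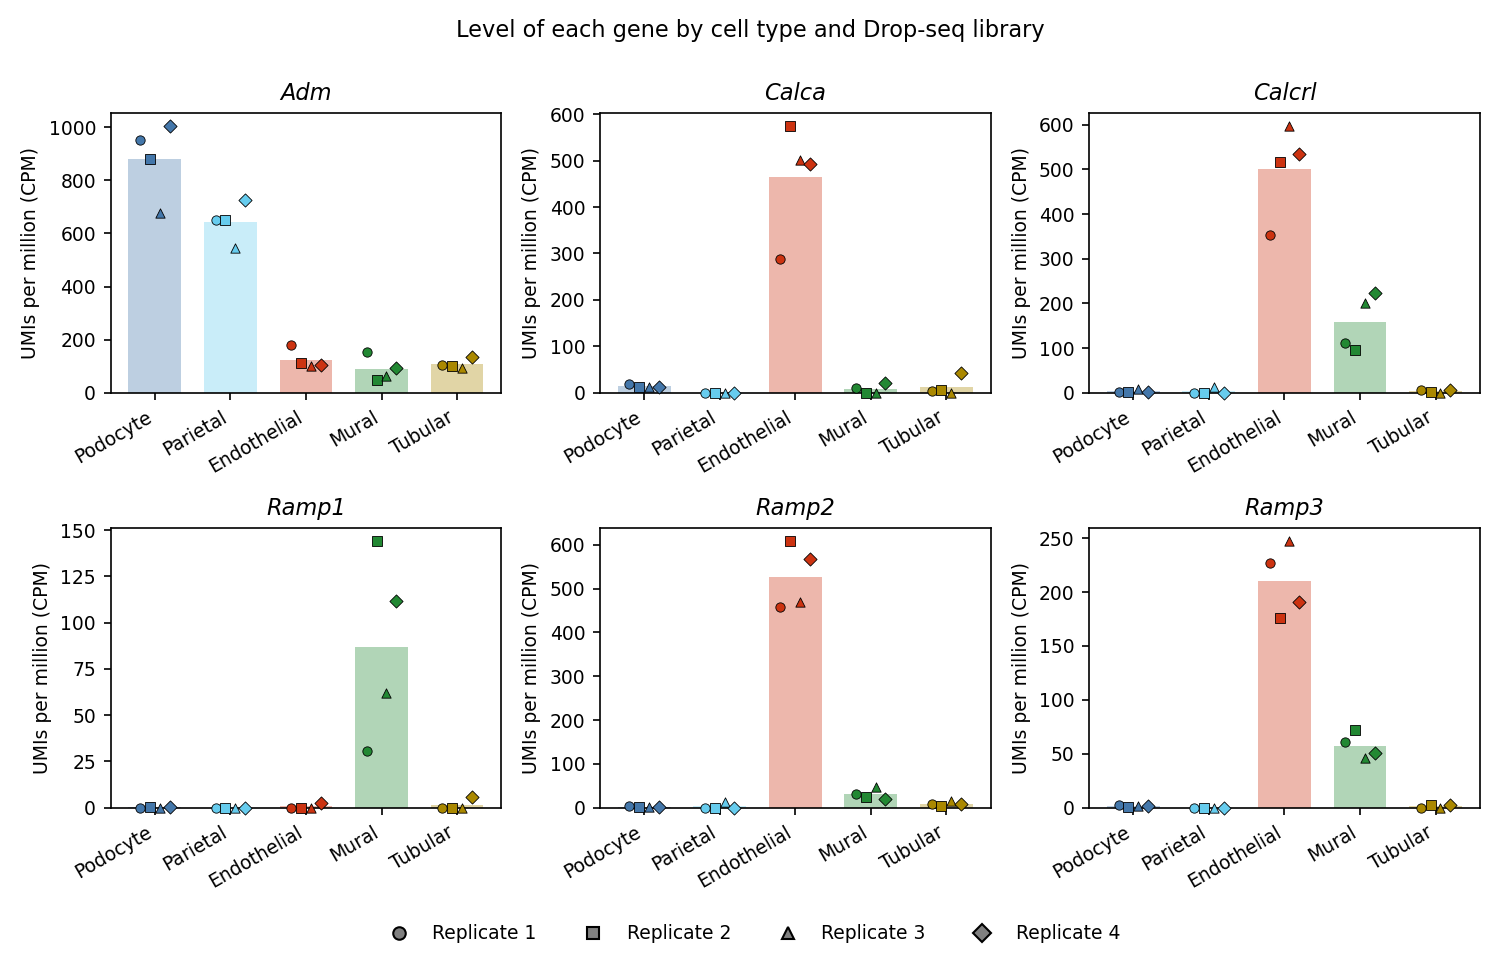
CPM (vertical axes, each gene on its own linear scale from 0) in 5 cell types, with bars for the mean and points for the 4 Drop-seq libraries. Adm stands high in podocyte-like (677 to 1005 CPM) and parietal epithelial-like cells, Calca, Calcrl, Ramp2 and Ramp3 are highest in endothelial-like cells, and Ramp1 in mural-like cells.

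Adm lies on chromosome 7 at positions 110627661 to 110629820 on the plus strand (GENCODE, GRCm38), and the antisense gene Gm28863 overlaps it. Adm is a known target of hypoxia-inducible factors (HIF), so the 250 bases before its RefSeq start (GRCm38.p6, chr7:110627407-110627656, plus strand) were searched for the HIF core ACGTG or GCGTG on both strands. The capitals mark 2 matches, read as CACGC on this strand, 90 and 54 bases before the start.
Adm: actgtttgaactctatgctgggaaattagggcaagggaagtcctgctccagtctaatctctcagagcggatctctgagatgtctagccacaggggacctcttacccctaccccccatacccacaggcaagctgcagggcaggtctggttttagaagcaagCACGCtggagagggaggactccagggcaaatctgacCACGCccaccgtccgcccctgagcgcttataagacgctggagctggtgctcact
The same letters stood in 38.6% of 32851 promoter windows of this length, so a match is common. Among the 6 genes, 5 had a RefSeq promoter entry. The Ramp3 window also held 2 matches, and the windows of Calca, Calcrl and Ramp1 held none.

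Adm was unevenly spread within podocyte-like cells. Leaving out a cluster of 11 cells, the lowest of the 7 podocyte clusters (1979 cells led by Rtn2 and 1473 led by Rps3a3) had 559 ± 112 and 545 ± 104 CPM (SD, n = 4). The highest had 1056 ± 266 CPM (248 cells, led by the heat-shock gene Hspb1) and 1044 ± 217 CPM (2140 cells, led by the early response genes Tnfaip3, Nr4a3, Cyr61 and Zfp36). Both lay above the 2 lowest clusters in each of the 4 libraries. Depth differed as well, with medians of 942 and 628 UMIs per cell in the low clusters and 824 and 1764 in the high ones, and its part was not tested. A further cluster of 1325 cells, of which 1209 came from replicate 4, had 1028 ± 232 CPM. The largest cluster (2716 cells, led by Ifrd1, Slpi and Nupr1) had 942 ± 71.4 CPM, and a cluster of 589 cells had 737 ± 59.0 CPM. The cluster of 11 cells had 25 Adm UMIs and 2893 ± 4412 CPM, and Adm was among its 10 leading genes. Shares of cells were compared after thinning each cell to 500 UMIs, which left out 658 shallower podocyte-like, 378 endothelial-like, 45 mural-like, 28 parietal epithelial-like and 20 tubular-like cells. Then 29.5% ± 3.46 of podocyte-like cells had an Adm UMI (47.5% ± 4.76 unthinned, median 1017 UMIs per cell), against 20.8% ± 4.87 of parietal epithelial-like and 4.08% ± 1.56 of endothelial-like cells (median 641 UMIs). The highest count in 1 podocyte-like cell was 32 UMIs, and the 512 cells with at least 5 UMIs held 32.4% of the podocyte-like Adm UMIs.

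Within the low types, the subclusters with the most podocyte markers had the most Adm. For each 100 podocyte-marker UMIs there were 4.18 Adm UMIs in podocyte-like cells, 4.77 in parietal epithelial-like, 5.60 in tubular-like, 2.98 in mural-like and 2.78 in endothelial-like ones. Without the subclusters whose leading genes held at least 2 markers of another class, Adm was at 57.0, 48.8, 28.0 and 31.6 CPM in the 4 endothelial-like libraries (mean 41.4 ± 13.8), at 43.0 ± 45.9 CPM in the mural-like type and at 42.4 ± 26.1 CPM in the tubular-like type. The part of podocyte RNA in these levels was not tested. Tubular-like cells were an exception in 2 subclusters. The subcluster led by Aqp2 and Aqp3, water channels of collecting duct principal cells, had 123 CPM of Adm (32 UMIs, 95% Poisson interval 84.3 to 174, which covers counting error only), with 92.4, 126, 180 and 0 CPM in replicates 1 to 4. The subcluster led by Atp6v1g3 and Slc4a9, genes of intercalated cells, had 153 CPM (14 UMIs, 83.5 to 256), with 86.3, 70.6, 400.2 and 66.1 CPM in replicates 1 to 4. Replicate 3 was the highest and gave 9 of the 14 UMIs, and without it the level was 72.3 CPM (5 UMIs, 23.5 to 169). The large subcluster with markers of the distal convoluted tubule and thick ascending limb had 13.3 CPM (18 UMIs, 7.88 to 21.0). Podocyte markers stood at 405 CPM in the Aqp2 subcluster, 829 in the intercalated one and 432 in the large one.

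**Figure D2:**
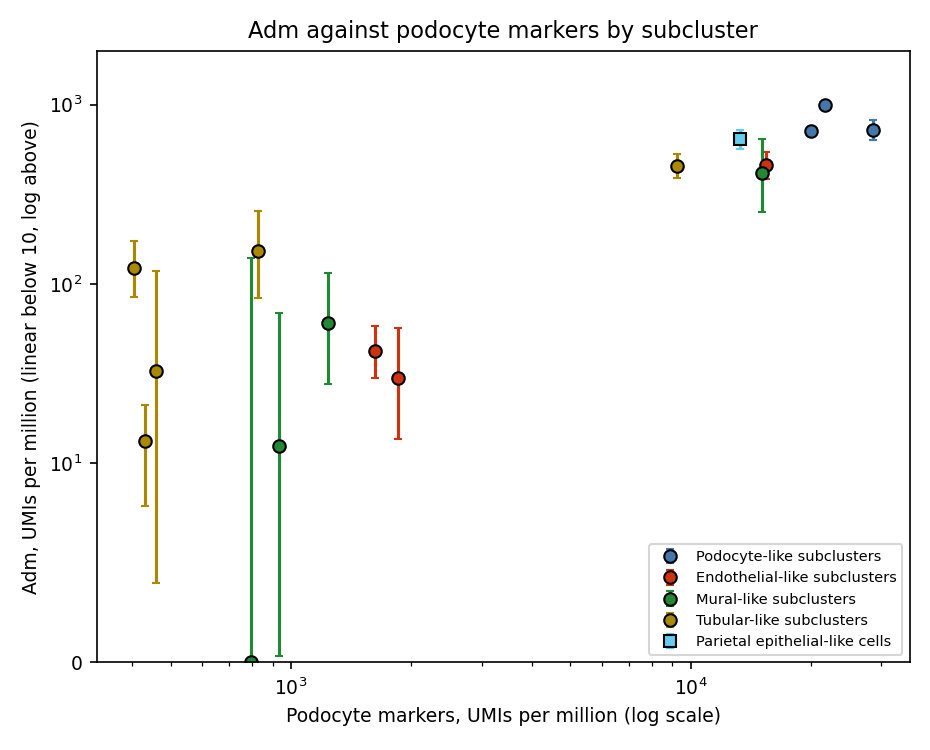
Adm (vertical axis, CPM, linear below 10 and logarithmic above) against the summed podocyte markers (horizontal logarithmic axis, CPM), 1 point for each subcluster over all libraries and 1 square for the parietal epithelial-like cells, with 95% Poisson intervals. Subclusters with many podocyte markers have Adm above 400 CPM, and 2 tubular-like subclusters reach 123 and 153 CPM with few podocyte markers.

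Calca was the ligand gene of the endothelial-like cells. Replicates 1 to 4 had 289, 575, 501 and 493 CPM there (mean 464 ± 122, SD, n = 4), and replicate 1 was the lowest. Podocyte-like cells had 18.3, 12.6, 13.1 and 11.5 CPM (mean 13.9 ± 3.02), far under every endothelial-like library. The log2 difference between the 2 types was 5.16 (SE 0.19, adjusted p = 1.06e-39, edgeR). Against tubular-like cells the difference was 5.21 (SE 0.28, adjusted p = 2.64e-28; 61.9% of genes called). Tubular-like cells had 12.6 ± 19.6 CPM, from 22 UMIs of which 15 were in replicate 4, and mural-like cells had 3 UMIs in all. Parietal epithelial-like cells had 0 of 407087 UMIs, so that the pooled endothelial-like level of 461 CPM was at least 62.5-fold higher than the limit that 3 UMIs over the group would give (7.37 CPM). Podocyte-like, tubular-like and mural-like cells did not pass against each other for Calca (adjusted p from 0.765 to 0.939).

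Calca was seen in few cells, some with many UMIs. It was seen in 285 of 1855 endothelial-like cells, with up to 20 UMIs in 1 cell, and 32 cells with at least 5 UMIs held 33.0% of its endothelial-like UMIs. Thinned to 500 UMIs, the share of endothelial-like cells with a Calca UMI was 12.8% ± 3.63 (15.8% unthinned), against 0.616% ± 0.0536 of podocyte-like cells (1.55% unthinned). Podocyte-like cells had more Calca for each receptor-gene UMI than endothelial-like cells. For each Calcrl UMI there were 4.94 Calca UMIs in podocyte-like cells (178 against 36) and 0.906 in endothelial-like cells (676 against 746). In tubular-like cells the ratio was 3.14 (22 against 7). In the 4 libraries the podocyte-like ratio ran from 1.58 to 11.8 and the endothelial-like ratio from 0.817 to 1.11, with no overlap. The podocyte-like ratios rest on 5, 7, 19 and 5 Calcrl UMIs in the libraries. The lowest was that of replicate 3, where podocyte-like Calcrl was far above the other libraries. For each Ramp2 UMI the podocyte-like type had 10.5 Calca UMIs, the endothelial-like type 0.893 and the tubular-like type 1.57. The part of endothelial RNA in the podocyte-like Calca level was not tested.

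Calca lies on chromosome 7 at 114631478 to 114636357 on the minus strand (GENCODE, GRCm38). The window before its RefSeq start (GRCm38.p6, chr7:114636358-114636607, minus strand, written 5′ to 3′) was searched on both strands for the cyclic AMP response element core TGACG, because the receptors signal through cyclic AMP. The capitals mark the 1 match, 65 bases before the start.
Calca: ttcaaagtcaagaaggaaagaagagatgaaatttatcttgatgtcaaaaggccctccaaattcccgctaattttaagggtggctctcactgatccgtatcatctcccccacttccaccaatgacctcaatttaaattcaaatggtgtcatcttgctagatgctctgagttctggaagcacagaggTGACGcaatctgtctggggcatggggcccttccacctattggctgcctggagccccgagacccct
These letters stood in 17.8% of the 32851 windows. The Adm window held no match to TGACG.

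Calcrl, the receptor gene (chromosome 2, 84330626 to 84425411, minus strand), was highest in endothelial-like cells and second in mural-like cells. The endothelial-like libraries had 354, 517, 597 and 535 CPM (mean 501 ± 104, SD, n = 4). The mural-like libraries had 112, 96.1, 201 and 224 CPM (mean 158 ± 63.6), each below the endothelial-like value of the same library and without overlap of the ranges. The log2 difference of endothelial-like from mural-like cells was 1.73 (SE 0.23, adjusted p = 1.62e-09, edgeR; 25.4% of all genes called in this comparison). Mural-like cells stood above podocyte-like cells by 5.76 on the log2 scale (SE 0.41, adjusted p = 1.04e-21; 32.5% of genes called), and both differences passed in 13 of 13 alternatives. Podocyte-like cells had 36 UMIs (3.29 ± 3.34 CPM), tubular-like cells 7 and parietal epithelial-like cells 1. These 3 types did not pass against each other (adjusted p from 0.461 to 0.971).

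In the mural-like subcluster of 172 cells with Calcrl at 196 CPM (29 UMIs, 131 to 282), Ramp2 and Calca had 0 UMIs of 147912, where 3 UMIs would be 20.3 CPM. The endothelial-like cells, for comparison, had 746 Calcrl and 757 Ramp2 UMIs. In the second mural-like subcluster led by no other class, 98 cells had 11 Calcrl UMIs and 2 Ramp2 UMIs. A small subcluster of 17 mural-like cells, led by Ctla2a, Ly6c1, Egfl7 and Emcn, endothelial genes, held 6 of the 9 mural-like Ramp2 UMIs and all 3 of its Calca UMIs.

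Ramp2 (chromosome 11, 101246028 to 101259546, plus strand, overlapping Vps25 on the same strand) had the largest share of its UMIs in endothelial-like cells among the 6 genes. These cells held 94.9% of its UMIs, with levels of 458, 609, 470 and 568 CPM (mean 526 ± 74.1, SD, n = 4). Mural-like cells had 30.5, 24.0, 46.4 and 20.3 CPM (mean 30.3 ± 11.5, 9 UMIs). No library of 1 type overlapped the other, and endothelial-like cells stood 4.28 above mural-like cells on the log2 scale (SE 0.33, adjusted p = 5.94e-19, edgeR). Tubular-like cells had 8.69 ± 5.02 CPM. The step from mural-like to tubular-like cells (1.75, SE 0.72, adjusted p = 0.045; 39.0% of genes called) passed in only 4 of 13 alternatives and was lost without any 1 of the 4 replicates. Podocyte-like cells had 1.34 ± 0.976 CPM.

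Ramp3 (chromosome 11, 6658521 to 6677475, plus strand, overlapped by the antisense gene Gm11978) was also highest in endothelial-like cells and second in mural-like cells. Endothelial-like libraries had 227, 176, 247 and 191 CPM (mean 211 ± 32.6) and mural-like libraries 60.9, 72.1, 46.4 and 50.8 CPM (mean 57.6 ± 11.4; SD, n = 4). The ranges did not overlap, and the log2 difference was 2.08 (SE 0.34, adjusted p = 5.25e-07, edgeR). Mural-like cells stood above podocyte-like cells (1.68 ± 0.807 CPM) by 4.91 (SE 0.61, adjusted p = 9.81e-11). Parietal epithelial-like cells had 0 UMIs, and the endothelial-like level was at least 29.3-fold above the limit of 3 UMIs there.

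Ramp1 (chromosome 1, 91179822 to 91225196, plus strand) was rare, and 24 of its 30 UMIs in kept cells were in mural-like cells. Replicates 1 to 4 had 30.5, 144, 61.8 and 112 CPM there (mean 87.1 ± 50.7, SD, n = 4), from 3, 6, 4 and 11 UMIs. Endothelial-like cells had 1 UMI of all their 1467482, podocyte-like cells 2, tubular-like cells 2 and parietal epithelial-like cells 0. Every mural-like library lay above every library of the other 4 types. The log2 difference of endothelial-like from mural-like cells was -6.43 (SE 0.92, adjusted p = 1.81e-08, edgeR), a value that rests on 1 UMI on the low side. It passed in the 7 alternatives that kept Ramp1 among the genes tested. With 24 of its 30 UMIs in mural-like cells, Ramp1 could pass the filter on low counts only through that type. Its calls in the filtered fits were thus partly set by the filter and are no separate support. Both mural-like subclusters led by no other class held Ramp1, at 94.7 CPM (14 UMIs) and 112 CPM (9 UMIs).

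Set against the mean of the other 4 types, 1 of the 6 genes was called higher in podocyte-like cells (Adm) and 2 lower (Calcrl and Ramp2), where 21.7% and 23.7% of all genes tested were called higher and lower. Both lower calls were lost without replicate 3. The mean of the other types includes types at or near 0 UMIs, so a gene that was not called may still differ. In podocyte-like cells Ramp3 had -2.23 (SE 168) and Ramp1 -2.76 (SE 1503). Calca had 0.47 (SE 0.91) there, although endothelial-like cells stood 5.16 above podocyte-like cells for it. In endothelial-like cells 4 were higher (Calca, Calcrl, Ramp2 and Ramp3; background 29.6%) and 1 lower (Adm; 19.4%). In mural-like cells 3 were higher (Calcrl, Ramp1 and Ramp3; 12.6%) and 1 lower (Adm; 8.42%). Parietal epithelial-like cells had 1 higher (Adm; 8.92%) and 4 lower (Calca, Calcrl, Ramp2 and Ramp3; 5.71%), of which 2 were called without replicate 1. Tubular-like cells had 0 higher (28.9%; by DESeq2 also 0, and 0 at an unadjusted p under 0.05) and 2 lower (Adm and Calcrl; 24.7%), and without replicate 3 Adm alone was lower there.

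Transcripts of the receptor parts were seldom seen together in 1 cell at this depth. Thinned to 500 UMIs, 19.1% ± 4.03 of endothelial-like cells had a Calcrl UMI, 23.1% ± 2.43 a Ramp2 UMI and 8.29% ± 2.07 a Ramp3 UMI (unthinned 25.2%, 30.6% and 12.9%). In podocyte-like cells these shares were 0.138%, 0.0528% and 0.0545%. Of the 288 thinned endothelial-like cells with Calcrl, 25.0% had Ramp2, against 22.1% of those without Calcrl. The values for Ramp3 were 7.64% and 8.66%. For Calca they were 22.6% and 10.1%: 65 cells had both, and the share was higher among cells with Calcrl in each replicate (9.62% against 8.79%, 34.0% against 13.6%, 23.7% against 10.3% and 22.5% against 8.89%). In mural-like cells 3.67% ± 1.11 had a Ramp1 UMI and 8.31% ± 2.70 a Calcrl UMI after thinning, and 5 of 325 cells held both among all their UMIs. Cells of 1 library share their source, and these shares carry no test.

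Endothelial-like cells fell into 3 subclusters, made without the 6 genes. Subcluster 0 (213 cells) was led by podocyte genes such as Cdkn1c and Rhpn1 and is left aside here. Subcluster 1 (395 cells) was led by Mgp and Fbln5 and carried arterial markers at 2195 CPM (Sox17 864, Fbln5 775 and Gja4 440 CPM), against 448 CPM in subcluster 2. Subcluster 2 (1247 cells) carried glomerular capillary markers at 7400 CPM (Plat 3001, Emcn 2204 and Ehd3 1179 CPM), against 1291 in subcluster 1. Haemoglobin and other red cell markers also differed, at 1628 CPM in subcluster 2 and 3.31 CPM in subcluster 1, and haemoglobin genes led subcluster 2; their part in the results was not tested.

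Calca was higher and Ramp3 lower in subcluster 1 than in subcluster 2, a contrast added after the data were seen. Calca had 731, 862, 1219 and 499 CPM in subcluster 1 (mean 828 ± 301, SD, n = 4) and 235, 551, 397 and 564 CPM in subcluster 2 (mean 437 ± 154), higher in 3 of 4 libraries and lower in replicate 4. The log2 difference was 1.01 (SE 0.20, adjusted p = 0.000131, edgeR), and it ran from 0.65 without replicate 3 to 1.39 without replicate 4. Ramp3 had 54.8, 41.1, 137 and 72.8 CPM in subcluster 1 (mean 76.3 ± 42.2) and 331, 256, 342 and 277 CPM in subcluster 2 (mean 302 ± 41.3). The ranges did not overlap, and the log2 difference was -1.79 (SE 0.29, adjusted p = 1.80e-06). So 2 of the 5 members tested were called where 15.6% of 2263 genes were.

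Calcrl had 547 ± 254 CPM in subcluster 1 and 593 ± 114 in subcluster 2 (log2 difference -0.05, SE 0.18, adjusted p = 0.888), a sign that turned without replicate 2 or 4. Ramp2 had 714 ± 202 and 561 ± 50.2 CPM (0.37, SE 0.16, adjusted p = 0.111). Adm had 22.8 ± 26.8 and 45.7 ± 26.0 CPM (adjusted p = 0.677), from 9 and 37 UMIs. Against the mean of the other subclusters, subcluster 1 had 3 members higher (Calca, Ramp2 and Calcrl, the last with adjusted p = 0.168 without replicate 3) and 1 lower (Adm), where 22.3% of genes were called, and subcluster 2 had 3 higher (Calcrl, Ramp2 and Ramp3) and 1 lower (Adm, lost without replicate 3 or 4), where 33.8% were. The reference there includes subcluster 0 with its podocyte RNA, in which 1 member was higher (Adm) and 4 lower (43.4% of genes called). Of these 4, Ramp3 had adjusted p = 0.14 without replicate 3 and 0.0553 without replicate 4. The Ramp2 call of subcluster 2 had adjusted p = 0.0384, and 0.0935 without the replicate block. It was also lost without replicate 1 (0.166), 3 (0.0546) or 4 (0.0879). In UMIs, subcluster 1 had 26 of Ramp3 and 208 of Ramp2, and subcluster 2 had 269 and 483.

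**Figure D3:**
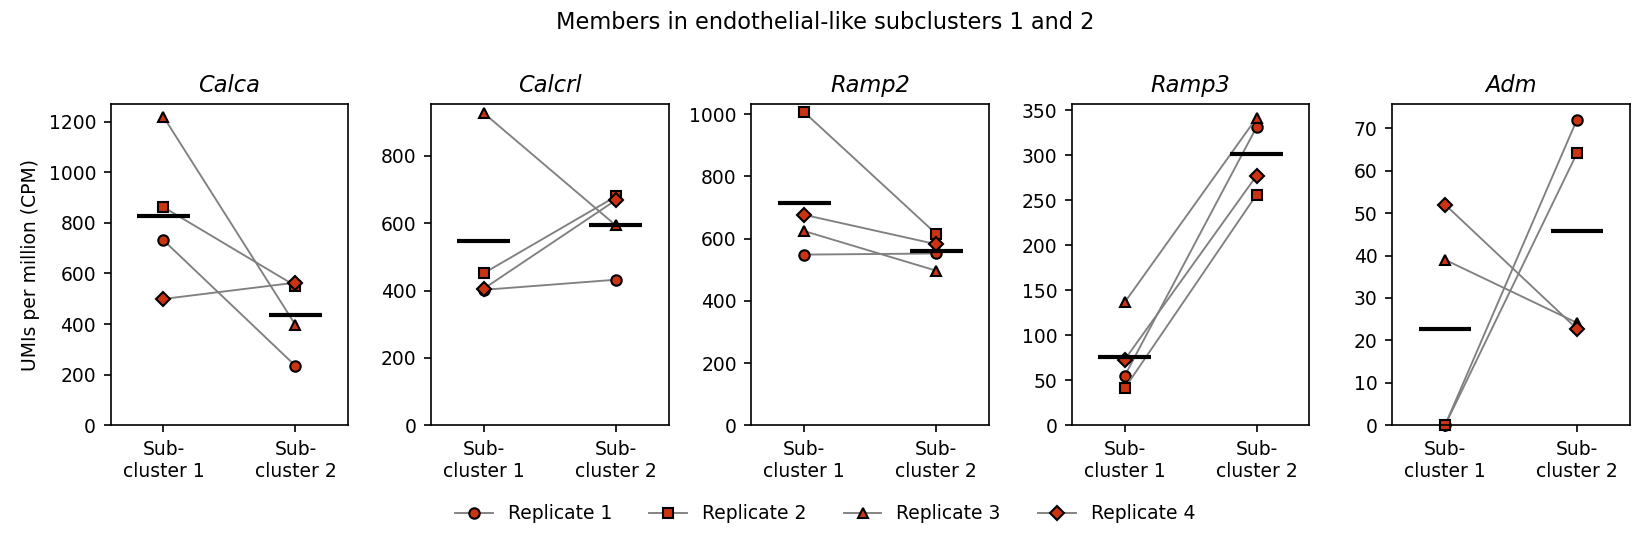
CPM (vertical axes, each from 0) of 5 genes in endothelial-like subclusters 1 (arterial markers) and 2 (capillary markers), with lines joining the 2 values of a library and black bars for the means. Ramp3 is lower in subcluster 1 in 4 of 4 libraries, Calca is higher in 3 of 4, and Calcrl and Ramp2 overlap.

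The rest of the pathway was read from 3 lists. The list of other ligands, receptors and processing or clearing proteins had 19 genes, of which 8 were tested. In podocyte-like cells 3 of the 8 were higher: Pth1r, the parathyroid hormone receptor (log2 difference 1.70, SE 0.09), Mme, the peptidase neprilysin (1.41, SE 0.14), and Ackr3, a scavenging receptor that also takes up adrenomedullin (0.93, SE 0.20). Ece1, endothelin-converting enzyme, was lower there (-3.43, SE 0.47) and higher in endothelial-like cells (4.92, SE 0.18), where Pth1r, Ackr3 and Mme were lower. In podocyte-like cells 21.7% of all genes tested were called higher and 23.7% lower. DESeq2, counted over all 19 listed genes and not these 8 alone, gave 3 higher and 4 lower there. Adjusted p-values ran from 3.40e-40 to 0.00404 (edgeR). The list had a median of 0.15 for the podocyte-like type and -0.95 for the endothelial-like type, beside -0.07 and 0.06 over all genes tested.

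Ackr3 stood at 144 ± 41.7 CPM in parietal epithelial-like cells and 56.9 ± 12.5 in podocyte-like cells, against 11.8 ± 3.11 in endothelial-like cells (SD, n = 4). Gcgr, the glucagon receptor, was at 47.5 ± 19.5 CPM in tubular-like and 39.6 ± 46.0 in mural-like cells. Pam, the enzyme that amidates adrenomedullin, was called in none of the 5 types, with means from 176 to 204 CPM. Over the 5 types Calcb, a second calcitonin gene-related peptide gene, had 9 UMIs, all in endothelial-like cells, and Calcr, the calcitonin receptor, had 8, all in tubular-like cells.

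Of 27 genes of cyclic AMP signalling 16 were tested, and in mural-like cells 6 were higher and 0 lower. Over all genes tested 12.6% were called higher and 8.42% lower. At an unadjusted p under 0.05 the same test gave 1 lower, Pde3b. DESeq2, counted over all 27 listed genes and not these 16 alone, gave 10 higher and 0 lower. It called 1413 genes higher and 349 lower of 14849 in mural-like cells. The 6 called higher by edgeR were Crem (3.30, SE 0.17, 786 ± 220 CPM), the phosphodiesterase Pde3a (2.82, SE 0.19), Rapgef4 (3.26, SE 0.56), the cyclase Adcy6 (2.36, SE 0.46), Prkar1a (0.54, SE 0.17) and Prkacb (1.25, SE 0.41). Their adjusted p-values ran up to 0.019. The products of Crem include an inducible repressor of cyclic AMP response genes, and counts per gene do not separate them. The list's median was 0.34, beside -0.07 over all genes. Endothelial-like cells had 5 higher, among them Crem (1.78) and Rapgef4 (3.18), and 5 lower, among them Pde3a (-1.27) and Pde4b (-1.08), beside a background of 29.6% and 19.4%. Podocyte-like cells had 8 higher, led by Pde4b (1.31) and Adcy1 (2.0), and 4 lower, led by Crem (-1.85) and Adcy6 (-2.85), beside a background of 21.7% and 23.7%. DESeq2, counted over all 27 listed genes and not the 16 alone, gave 8 higher and 8 lower. It called 1558 genes higher and 3389 lower of 15926 in podocyte-like cells.

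Other HIF targets differed in both directions. Of 20 listed genes 14 were tested. In podocyte-like cells 3 were higher, Vegfa, the endothelial growth factor (1.88, SE 0.08; 1780 ± 83.0 CPM), P4ha1 and P4ha2, and 6 were lower, among them Ndrg1 (-2.64), Ddit4 (-4.23), Bhlhe40 (-1.56) and Ldha (-0.79). All genes tested were called higher in 21.7% and lower in 23.7%. DESeq2, counted over all 20 listed genes, gave 3 higher and 9 lower. The median was -0.50, beside -0.07 over all genes. In endothelial-like cells, where Adm was lower, 6 were higher and 3 lower (background 29.6% and 19.4%).

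By the correlation of log2 levels (pseudocount 10 CPM) over the 20 sums of 4 libraries and 5 types, the genes most like Adm were Gadd45a (Pearson's r 0.97), Nphs1 (nephrin of the slit diaphragm), Npnt, Lpin2 and Myof (r 0.96 for each). Those most like Calcrl were Apold1, Atp2a3, Lrrc32, Adgre5 and Clic4 (r 0.98), those most like Ramp3 Adgre5 (0.99), Lrrc32, Procr, Gm7676 and Apold1 (0.98), and those most like Ramp2 Arhgap31, Ifi27l2a, Gimap6, Ecscr and Pi16 (0.97 to 0.98). Calcrl and Ramp3 had r 0.98 with each other and Calcrl and Ramp2 0.91. The 20 points share libraries and types, so these values describe likeness only. With a pseudocount of 1 CPM the 5 genes of Adm were the same, and of those of Calcrl, Ramp2 and Ramp3 there remained 1, 2 and 2.

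The 2 bulk libraries set whole glomeruli against dissociated cells, 1 library each, so there is no replicate check and no p-value. They held 28407317 and 24555632 reads on genes. Dissociation, fixation, sorting and the amount of RNA cannot be told apart, and neither can fewer cells of a type and less RNA per cell. Adm had 2849 reads in whole glomeruli and 16897 in dissociated cells, which gave 89.9 (95% Poisson interval 86.7 to 93.3, counting error only) and 767 CPM (756 to 779). It was thus 8.52-fold higher in dissociated cells (log2 ratio 3.09) and ranked 83 among 12692 genes by this ratio, of which 10.7% were at least 2-fold higher and 18.9% at least 2-fold lower. Podocyte markers were also higher, with a median log2 ratio of 1.09 over 9 genes and a highest of 1.85.

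Among the other members, Calcrl had 244 CPM in whole glomeruli and 57.9 in dissociated cells (log2 ratio -2.07), and Ramp2 126 and 52.9 CPM (-1.25). Calca had 90.7 and 62.9 CPM (-0.53), within 2-fold, and Ramp3 28.3 and 42.7 CPM (0.59), also within 2-fold. Ramp1 had 7 and 16 reads, too few for a ratio by the minimum used. So 1 member was past 2-fold higher and 2 past 2-fold lower. Endothelial markers had a median of -1.63 (0 of 12 higher, 9 lower by 2-fold), the capillary list -3.24 and the arterial list -1.96. Mesangial markers had -5.08, and smooth muscle and renin markers -0.15. Scaling by library totals in place of TMM moved the median of all genes from -0.01 to -0.32 and gave 2.78 for Adm, -0.84 for Calca, -2.39 for Calcrl, -1.56 for Ramp2 and 0.28 for Ramp3.

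To set the genes beside each other within a library, counts were divided by the length of all annotated exons of a gene together. For Ramp2, which overlaps Vps25, this was 3301 bases. The transcripts in use may be shorter and were not measured, so the order of the genes is approximate. In whole glomeruli Adm, Calca and Calcrl stood at 55.6, 53.9 and 49.9 CPM per kilobase, Ramp2 at 38.1, Ramp3 at 20.5 and Ramp1 at 0.0731. In dissociated cells Adm stood at 474, Calca at 37.4, Ramp3 at 30.9, Ramp2 at 16.0, Calcrl at 11.9 and Ramp1 at 0.240.

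**Figure D4:**
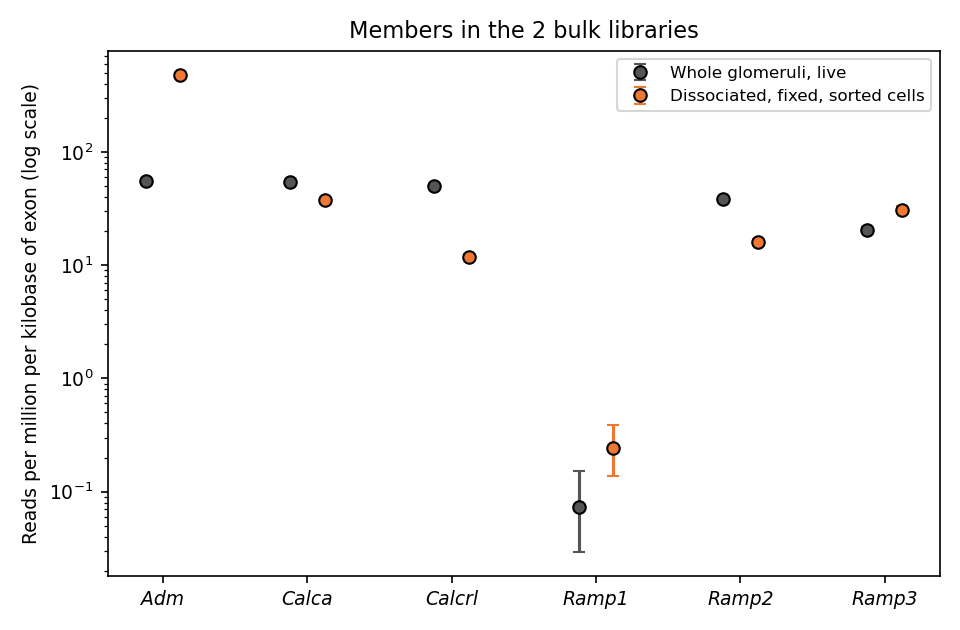
Counts (CPM) per kilobase of exon (vertical logarithmic axis) of the 6 genes in the whole and the dissociated bulk library, with 95% Poisson intervals that are smaller than the points except for Ramp1. Adm is far higher in the dissociated library (474 against 55.6), Calcrl and Ramp2 are lower, and Calca and Ramp3 lie within 2-fold.

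The dissociated bulk library and the Drop-seq libraries, which share the dissociation and fixation, gave near values for 4 genes. Bulk CPM are here scaled by the library total without TMM factors. Bulk reads also depend on transcript length and UMIs do not, so the 2 measures are unlike. Over all barcodes Drop-seq had 654 ± 128 CPM of Adm (SD, n = 4) beside 688 in bulk, 53.6 ± 20.8 of Calca beside 56.4, 53.8 ± 30.5 of Calcrl beside 51.9 and 49.1 ± 19.0 of Ramp2 beside 47.5. The bulk value lay within 1 SD of the Drop-seq mean for each. Ramp3 had 23.6 ± 11.5 CPM beside 38.3 in bulk, above all 4 Drop-seq libraries. The endothelial-like share of kept cells ran from 7.09% in replicate 2 to 22.4% in replicate 3, and its part in the Drop-seq spread was not tested.

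Listed partners and targets in bulk followed no single direction, beside the 10.7% of all genes at least 2-fold higher and 18.9% at least 2-fold lower. Of 17 HIF targets with enough reads 4 were at least 2-fold higher in dissociated cells, Bhlhe40 (1.98), Pfkfb3 (1.77), Ddit4 (1.18) and P4ha1 (1.08), and 0 at least 2-fold lower, with a median of 0.52 beside -0.01 over all genes. Each was below the ratio of Adm. Of 25 cyclic AMP genes 4 were higher, Pde4b (2.26), Crem (2.0), Pde4d (1.75) and Adcy1 (1.07), and 9 lower, led by Adcy6 (-2.90), Prkar2b (-2.53), Pde4a (-2.38) and Rapgef4 (-2.30), with a median of -0.49. Of 11 partner genes 3 were higher, Ackr3 (1.28), Pth1r (1.26) and Mme (1.16), and 4 lower, among them Vipr1 (-2.36), Ece1 (-2.11) and Gper1 (-1.66), with a median of -0.29.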

How the data were processed

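Expression was counted in 4 Drop-seq libraries of dissociated, methanol-fixed glomerular cells and 2 bulk RNA-seq libraries. The authors deposited counts: UMI counts per gene and cell for Drop-seq and read counts per gene for bulk, with STAR and HTSeq among the tools per the submitters' processing notes. For the genome build, annotation and strand setting of the counting, the entry is: not given in the sources used here. Genes were matched by symbol, and coordinates come from GENCODE (GRCm38). Bulk reads that were ambiguous between genes stayed out, so reads in the overlap of Ramp2 with Vps25 may be missing from Ramp2. For the antisense overlaps of Adm with Gm28863 and Ramp3 with Gm11978 this depends on the strand setting. In Drop-seq, UMIs in these overlaps may belong to either gene.

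Barcodes with under 300 genes (888) or over 20% mitochondrial UMIs (584) were left out, and 4099, 4017, 2809 and 3068 cells remained in replicates 1 to 4. No doublet caller was run. Cells were clustered with scanpy 1.11.5 (2000 variable genes, 30 components, 15 neighbours, resolution 1.0) without the 6 genes and their lists (72 genes). UMIs were summed per library and type and tested with edgeR 4.0.16 in R 4.3.3 (quasi-likelihood test, TMM scaling, filterByExpr, replicate as a block, Benjamini-Hochberg over 7481 genes, threshold 0.05). The 5 types of a library come from the same cell suspension, which is why the replicate number pairs them. Standard errors were derived from the F statistic. CPM in Drop-seq are counts scaled to 1000000 UMIs in each type and library. DESeq2 1.42.0 and the other alternatives are given at the end. Subclusters came from a second clustering within the podocyte-like, endothelial-like, mural-like and tubular-like types. The parietal epithelial-like and immune-like types were not subclustered. The alternative without subclusters led by another class therefore took out no parietal epithelial-like cell. Replicates did not match within sampling noise (chi-square per degree of freedom 4.37 to 14.1).

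For bulk, CPM used TMM factors (ratio 0.804, not used where bulk stands beside Drop-seq), a prior count of 2 and a minimum of 100 reads over both libraries. Reads on no feature were 9.68% and 6.14%, ambiguous reads 3.77% and 3.87% and multiply mapped reads 9.47% and 14.7% of the whole and dissociated library, and stayed out.

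The members and lists were chosen with earlier results of these data known. All members are named, and of each list up to 6 passing genes per direction by adjusted p (in bulk by ratio). Pam, Calcb and Calcr were named after their values were seen. The direct contrast of endothelial-like subclusters 1 and 2, the alternative without subclusters led by another class, and the levels of Adm in tubular-like subclusters without 1 library at a time were added after the data were seen.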

Additional observations from a re-analysis of the deposited data

Results flagged for a closer look

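Of 22 groups of 4 libraries examined, 4 had 1 library far from the other 3, where chance gives about 1 in 20. Calcrl in podocyte-like cells was 8.30 CPM in replicate 3 (19 UMIs) and 1.55 to 1.69 in the others. Ramp2 in podocyte-like cells was 2.79 CPM in replicate 1 and 0.688 to 1.02 in the others. Adm in endothelial-like cells was 180 CPM in replicate 1 and 100.2 to 111 in the others. Calca in tubular-like cells was 41.8 CPM in replicate 4 (15 UMIs) and 0 to 5.61 in the others.

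The 49 immune-like cells entered no comparison. They held Ramp3 at 175 CPM over all libraries (8 UMIs in 5 cells, 95% Poisson interval 75.4 to 344) and Adm at 87.3 CPM (4 UMIs in 3 cells, 23.8 to 223), both above the 65.5 CPM that 3 UMIs would give.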

How the results depend on the processing

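The 13 alternatives of the comparisons between pairs of types (12 planned) changed few calls. The differences given with a call for Adm, Calcrl, Ramp2 and Ramp3 kept their direction and call, except Adm in parietal epithelial-like against podocyte-like cells (called in 11 of 13) and against tubular-like cells (12 of 13), and Ramp2 in mural-like against tubular-like cells (4 of 13). Ramp1 was among the genes tested in 7 of 13 and was called in each, but it could pass the filter on low counts only through its mural-like UMIs. Without the replicate block, Adm in parietal epithelial-like against podocyte-like cells was -0.50 (adjusted p = 0.0952, edgeR), and Ramp2 in endothelial-like subcluster 2 had adjusted p = 0.0935 in place of 0.0384. The block changed no other call given for the 6 genes.

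Against the mean of the other types, members lower in podocyte-like cells were 2, and 0 to 2 when 1 replicate was left out, 1 with at least 500 genes per cell, 1 with at most 10% mitochondrial UMIs, 4 by DESeq2 and 4 against all other cells pooled. Members lower in parietal epithelial-like cells were 4, 2 to 4 when 1 replicate was left out, 0 without cells that held markers of 2 types and 2 without subclusters led by another class, and members higher were 0 against all other cells. Against all other cells, members lower were 2 for the mural-like and 5 for the tubular-like type. They were 0 in tubular-like cells at 10% mitochondrial UMIs, where that type was 177 cells, and 1 to 2 in tubular-like cells when 1 replicate was left out. Members lower in endothelial-like subcluster 2 against the others were 1, and 0 to 1 when 1 replicate was left out (0 without replicate 3 or 4).

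Differences that missed the threshold and changed sign were Adm in endothelial-like against tubular-like cells (-0.32 to 0.13 when 1 replicate was left out, with 0.03 without replicate 3 and 0.13 without replicate 4, 0.93 with at least 500 genes, which passed, and 0.0915 at resolution 0.5), Adm in endothelial-like against mural-like cells (-0.40 without cells with markers of 2 types), and, between endothelial-like subclusters 1 and 2, Calcrl (-0.46 to 0.15 when 1 replicate was left out, with 0.06 without replicate 2) and Adm (-1.24 to 0.11, the highest without replicate 1). The cause was not tested.

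Scaled by library totals, the bulk log2 ratios were 2.78 for Adm, -0.84 for Calca, -2.39 for Calcrl, -1.56 for Ramp2 and 0.28 for Ramp3. Thinned to 1000 UMIs, with fewer cells, the shares with a UMI were 48.4% (Adm, podocyte-like), 21.0%, 26.9%, 35.8% and 12.7% (Calca, Calcrl, Ramp2 and Ramp3, endothelial-like) and 8.51% (Ramp1, mural-like).

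Counts over all genes that moved by over 1.5 times were as follows. Genes higher in podocyte-like cells were 1624, and 4985 with no filter on low counts, 654 at 10% mitochondrial UMIs and 2701 against all other cells. Genes lower there were 1773, and 974 with no filter, 1158 without replicate 1, 1159 with at least 500 genes, 789 at 10% mitochondrial UMIs, 685 without cells with markers of 2 types, 3389 by DESeq2 and 3154 against all others. At 10% mitochondrial UMIs, genes higher and lower were 873 and 734 in the endothelial-like type (2211 and 1448 otherwise), 436 and 352 in the mural-like type (939 and 630), 325 and 209 in parietal epithelial-like (667 and 427) and 495 and 357 in tubular-like cells (2164 and 1851). Without cells with markers of 2 types, genes higher were 1216, 512, 427 and 1155 in the same order, and genes lower 329, 232 and 1001 in the last 3. With at least 500 genes, endothelial-like cells had 1384 and 885, mural-like cells 615 higher and parietal epithelial-like cells 283 lower (257 without replicate 3). DESeq2 gave 1413 and 349 in mural-like cells and 3333 higher in tubular-like cells, which had 3505 higher with no filter. Against all others, genes lower were 2859 (endothelial-like), 1278 (mural-like) and 3012 (tubular-like), and genes higher 196 in parietal epithelial-like cells. In bulk, genes past 2-fold were 759 higher and 3180 lower by library totals, and 2307 and 3862 with a minimum of 10 reads.

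Depth limits the low levels: Ramp1 rests on 30 UMIs, and of the members in parietal epithelial-like cells only Adm had over 1 UMI. The cell types were rebuilt here, mixed cells remain, and the bulk comparison has 1 library on each side.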
